A study of Mus musculus with 9 samples.

Results

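The 10 genes described here belong to the endoplasmic reticulum (ER) stress response: Hspa5, Hsp90b1, Pdia4, Pdia6, Xbp1, Atf6, Ddit3, Ern2, Dnajb9 and Creld2. They were taken by symbol as named genes of this response, and all 10 were found among the 23951 genes of each expression table. RNA was sequenced from crypts of the mouse jejunum, in 9 libraries. The 3 Smad4 KO libraries came from Smad4f/f;Villin-CreER(T2) mice given tamoxifen. The 3 double-mutant libraries came from Smad4f/f; Ex3f/+;Villin-CreER(T2) mice given tamoxifen, in which 1 beta-catenin allele also loses exon 3 and gives a stabilised protein. The 3 control libraries came from animals labelled only as control mouse; their treatment is given as vehicle in the sample labels and as uninjected in the design text, and they are not stated to carry the recombinase or the floxed alleles. Tamoxifen was given on 4 days in a row and tissue was taken 1 day after the last dose. Villin-CreER(T2) acts in the intestinal epithelium, so other cells of the preparation are not targeted, and tamoxifen and recombinase cannot be told apart from genotype here. Ages, and whether each library came from its own mouse, are not given in the labels. By Xist and Y-linked genes each group held libraries of both sexes, so each group came from more than 1 mouse. The p-values measure the spread between these libraries, part of which may be technical.

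Proteins bound for secretion or for membranes are folded in the ER by chaperones and disulfide isomerases. When unfolded protein accumulates there, membrane sensors of the IRE1, PERK and ATF6 families signal to the nucleus, and the resulting unfolded protein response raises folding capacity, degradation of misfolded protein and, if the load persists, the pro-apoptotic factor CHOP. In the intestine this machinery is known for its role in the secretory goblet and Paneth cells, which make mucus and antimicrobial peptides.

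Values are FPKM, read counts scaled for transcript length and library size. The Smad4 KO table and the double-mutant table each hold the same 3 controls and were normalized separately, so each mutant group is set against the controls of its own table, and the 2 comparisons share those controls. Smad4 itself fell to 10.6 ± 0.56 FPKM in Smad4 KO crypts, against 49.8 ± 5.02 in controls, and to 10.4 ± 0.64 in the double mutants, against 52.0 ± 5.96 in controls (SD, n = 3 each; limma adjusted p = 0.00664 and 0.00176). The level of Ctnnb1, which encodes beta-catenin, averaged 315 ± 48.1 FPKM in Smad4 KO, against 291 ± 20.2 in controls, and 276 ± 36.8 in the double mutants, against 304 ± 20.8 (SD, n = 3 each). Gene-level FPKM do not show whether exon 3 of Ctnnb1 was removed. A gene was called when its limma p, adjusted by the Benjamini-Hochberg method over all genes tested, lay below 0.05. Of 11849 genes tested, 4 were called in Smad4 KO (0.0338%; 1 higher and 3 lower), and of 11762 tested, 2173 were called in the double mutants (18.5%; 1104 higher and 1069 lower). Other scalings split the Smad4 KO calls into 2 higher and 3 lower (median of ratios), 4 and 4 (quantiles) or 4 and 3 (sums without the 50 highest genes). Leaving out 1 library gave 5 to 16 calls in Smad4 KO and 30 to 1555 in the double mutants, the fewest without double mutant 2. The sequencing depth is unknown. Markers of the labelled tissue were present, with summed Paneth cell markers of at least 11457 FPKM and summed stem cell markers of at least 454 FPKM in every library. Smad4 KO 0 stood apart, with both of these minima and with the highest enterocyte sum of the 9 libraries, 17240 FPKM. Without it the log2 fold changes in Smad4 KO were 0.47 for Hspa5, 0.43 for Hsp90b1, 0.60 for Pdia4, 0.51 for Pdia6, 0.72 for Creld2 and -0.23 for Atf6, and 0.04 for Xbp1, -0.22 for Ddit3, 0.42 for Ern2 and -0.11 for Dnajb9.

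Hspa5, Hsp90b1, Pdia4, Pdia6 and Creld2 had higher means in both mutant groups than in controls, while the sensor Atf6 was lower in every mutant library than in every control. The grouping of these 5 follows their values, since the co-chaperone Dnajb9, which also acts in ER folding, had lower means than controls. The 5 were at 1.41 to 1.61 times control in Smad4 KO and 1.31 to 1.47 times control in the double mutants. None of the 5 passed the test across all genes in either group. Dnajb9 was at 0.852 times control in Smad4 KO and 0.634 times control in the double mutants. Xbp1, Ddit3 and Ern2 lay between 0.967 and 1.07 times control in Smad4 KO and between 0.810 and 0.966 in the double mutants. All 10 passed the filter on low values in both tables.

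**Figure D1:**
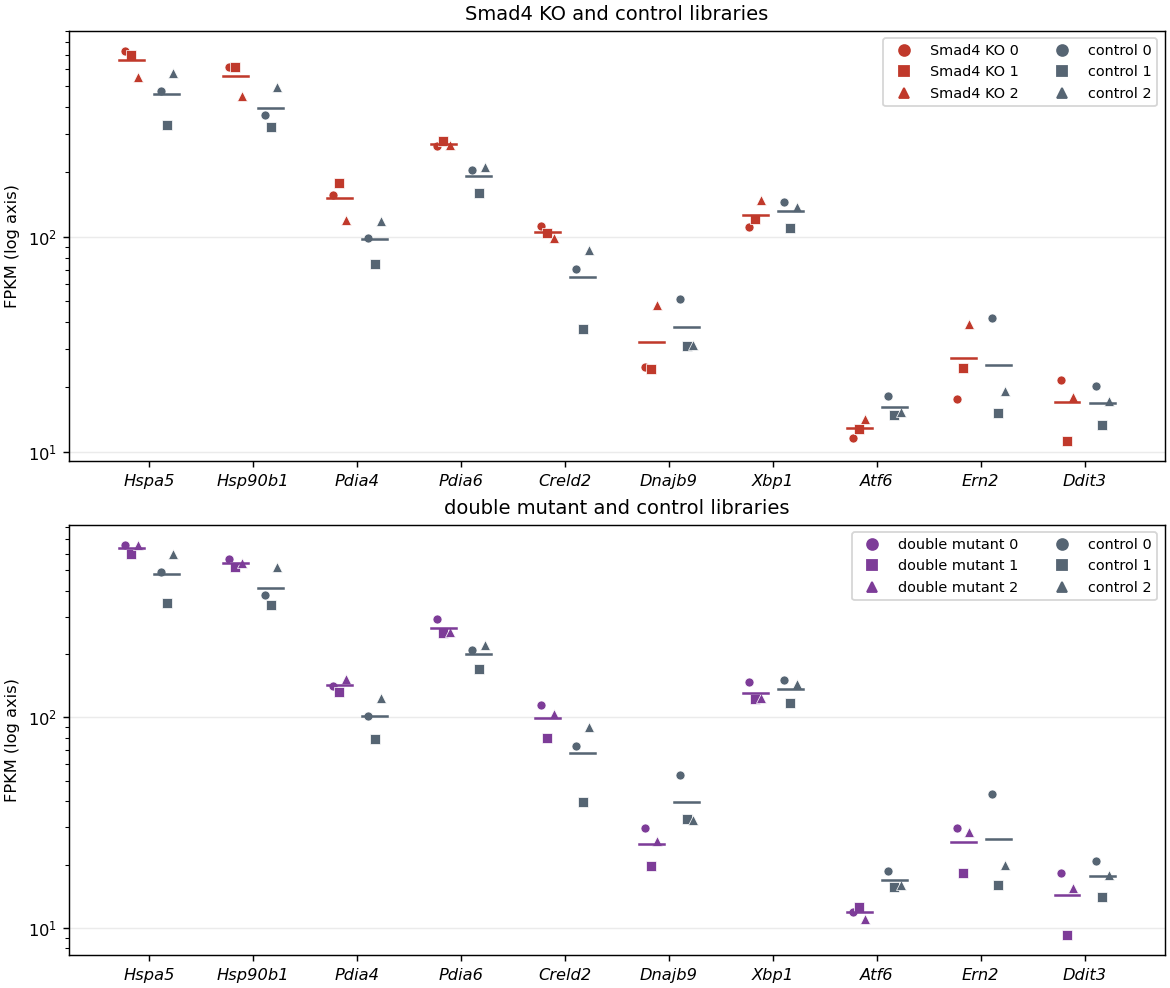
FPKM of each of the 10 genes on a log axis, with 1 point per library and a horizontal line at the group mean, for Smad4 KO and controls (top) and double mutants and controls (bottom). For Pdia6 the 3 mutant points lie above the 3 control points in both panels, and for Atf6 they lie below.

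Counted over the members, limma called 0 of 10 in Smad4 KO, where 0.0338% of all genes were called (0.00844% higher and 0.0253% lower). An unadjusted p below 0.05 was seen for 3 members, Pdia4, Pdia6 and Creld2, all higher, against 19.1% of all genes (9.76% higher and 9.34% lower). It called 1 of 10 in the double mutants, Atf6, which was lower. There 18.5% of all genes were called (9.39% higher and 9.09% lower), so 1 of 10 is near the background. Of all genes 36.6% had an unadjusted p below 0.05 there (18.2% higher and 18.4% lower), as had 4 members, Pdia4 and Pdia6 higher and Atf6 and Dnajb9 lower. Under quantile normalization Pdia6 was called higher as well. The mutant libraries lay above all controls for 3 of 10 members in Smad4 KO and 3 of 10 in the double mutants, against 14.2% and 21.3% of all genes. They lay below all controls for 1 member in Smad4 KO and 2 in the double mutants, against 12.2% and 21.3% of all genes. The median log2 fold change of the 10 was 0.33 in Smad4 KO and 0.23 in the double mutants, while the median over all genes tested was -0.0032 and -0.0013. With 3 libraries against 3, the exact two-sided permutation test cannot give a p below 0.1.

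Hspa5 encodes BiP, the Hsp70 chaperone of the ER lumen, which also holds the stress sensors inactive. It was the most abundant member in all groups, at 731, 701 and 555 FPKM in Smad4 KO libraries 0, 1 and 2, against 475, 331 and 575 in controls 0, 1 and 2. Smad4 KO 0 and 1 lay above all controls, while Smad4 KO 2 lay below control 2. The fold of the means was 1.44 (limma log2 fold change 0.55, SE 0.26, adjusted p = 0.306). In the double mutants Hspa5 was at 659.7, 595 and 661 FPKM, against 489, 351 and 600.2 in controls, and double mutant 1 lay just below control 2 (limma log2 fold change 0.44, SE 0.22, adjusted p = 0.200). Without control 1, the lowest control, the log2 fold change of Hspa5 was 0.33 in Smad4 KO and 0.23 in the double mutants.

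Hsp90b1 encodes GRP94, the Hsp90 chaperone of the ER. It was at 614, 613 and 449 FPKM in Smad4 KO, against 369, 324 and 495 in controls, with Smad4 KO 2 again below control 2 (limma log2 fold change 0.50, SE 0.23, adjusted p = 0.305). The double mutants had 566, 517.0 and 539 FPKM, against 381, 343 and 516.7 in controls. All 3 thus lay above the controls, double mutant 1 barely above control 2, and the log2 fold change of 0.41 (SE 0.19) did not pass (limma adjusted p = 0.168).

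Pdia4 and Pdia6 encode protein disulfide isomerases, which form and rearrange disulfide bonds in folding proteins. Pdia6 was at 264, 278 and 266 FPKM in Smad4 KO, against 204, 160.1 and 212 in controls, with no overlap (limma log2 fold change 0.50, SE 0.15, adjusted p = 0.182). It was at 292, 251 and 254 FPKM in the double mutants, against 209.9, 169.6 and 221 in controls, again with no overlap (limma log2 fold change 0.41, SE 0.14, adjusted p = 0.0944). Pdia6 had the smallest limma p of the 10 members in Smad4 KO, unadjusted p = 0.0160. Pdia4 was at 156, 177 and 119.2 FPKM in Smad4 KO, against 98.5, 74.6 and 118.6 in controls, where Smad4 KO 2 and control 2 nearly coincided (limma log2 fold change 0.63, SE 0.23, adjusted p = 0.223). In the double mutants Pdia4 was at 141, 132 and 153 FPKM, against 102, 79.0 and 124 in controls, without overlap (limma log2 fold change 0.50, SE 0.18, adjusted p = 0.0963).

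Creld2, a secreted ER protein whose gene is induced by ER stress, had the highest fold of the members in both groups. It was at 112, 104 and 98.8 FPKM in Smad4 KO, against 70.9, 37.4 and 86.7 in controls, with no overlap (limma log2 fold change 0.76, SE 0.31, adjusted p = 0.259). The double mutants had 115, 79.5 and 104 FPKM, against 73.1, 39.6 and 90.5 in controls, and double mutant 1 lay below control 2 (limma log2 fold change 0.61, SE 0.32, adjusted p = 0.215). Without control 1 its log2 fold change was 0.41 in Smad4 KO and 0.27 in the double mutants. For all 5 of these genes control 1 was the lowest of the 6 libraries in each table and control 2 the highest control. Control 2 was also the only control library with Xist levels of a female, against 2 of 3 libraries in each mutant group. With sex in the model, the Smad4 KO log2 fold changes were 0.50 for Hspa5, 0.45 for Hsp90b1 and 0.57 for Pdia4. They were 0.45 for Pdia6 and 0.66 for Creld2, and limma called none of these.

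The promoters of 4 of these 5 genes share an element known from the ER stress response, the response for which the members were named. The 5 were also grouped by their values, so this count carries no test. The ER stress response element (ERSE) is written CCAAT, 9 bases of any kind, then CCACG, and is known in mammals as a binding element of NF-Y and ATF6. RefSeq promoter sequences (build GRCm38.p6, 250 bases before to 50 after the start) were on hand for 8 of the 10 members, all but Atf6 and Ern2. On either strand, the ERSE letters occurred in the windows of Hspa5, Hsp90b1, Pdia6 and Creld2, in Hsp90b1 at 2 places, and in 39 of 32851 windows of all genes (0.119%). The matches are shown on the strand of the gene, 5′ to 3′, with 20 bases on either side in lower case and the element, or its reverse complement, in capitals.
Hspa5, chr2:34772005-34772063, plus strand, element 65 to 47 bases before the start: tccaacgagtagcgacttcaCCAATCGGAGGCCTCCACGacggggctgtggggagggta
Hsp90b1, chr10:86705618-86705676, minus strand, element 212 to 194 bases before the start: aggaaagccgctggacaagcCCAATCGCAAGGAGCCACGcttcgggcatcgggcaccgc
Hsp90b1, chr10:86705513-86705571, minus strand, reverse complement 107 to 89 bases before the start: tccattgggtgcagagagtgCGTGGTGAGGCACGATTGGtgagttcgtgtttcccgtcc
Pdia6, chr12:17266471-17266529, plus strand, element 98 to 80 bases before the start: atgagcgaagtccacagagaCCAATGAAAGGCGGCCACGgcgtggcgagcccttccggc
Creld2, chr15:88819500-88819558, plus strand, reverse complement 126 to 108 bases before the start: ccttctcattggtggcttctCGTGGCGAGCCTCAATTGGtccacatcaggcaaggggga
The letters were not found in the windows of Pdia4, Xbp1, Ddit3 or Dnajb9. None of the 8 windows held the related ERSE-II (ATTGG, any base, CCACG; 0.0365% of all windows), the XBP1 element UPRE (TGACGTGG; 0.676%) or the ATF4 composite site (TGATG, any base, AAT; 0.965%), on either strand. These are matches of letters and show no binding.

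Genes with an ERSE in this window were also looked at across the whole table, a set chosen after the members' values were seen. Leaving out the 4 members, 10 were tested in Smad4 KO and 11 in the double mutants, of which 7 and 5 had a positive log2 fold change, with medians of 0.22 and -0.10. The matches outside the members were thus not uniformly higher in either mutant group.

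**Figure D2:**
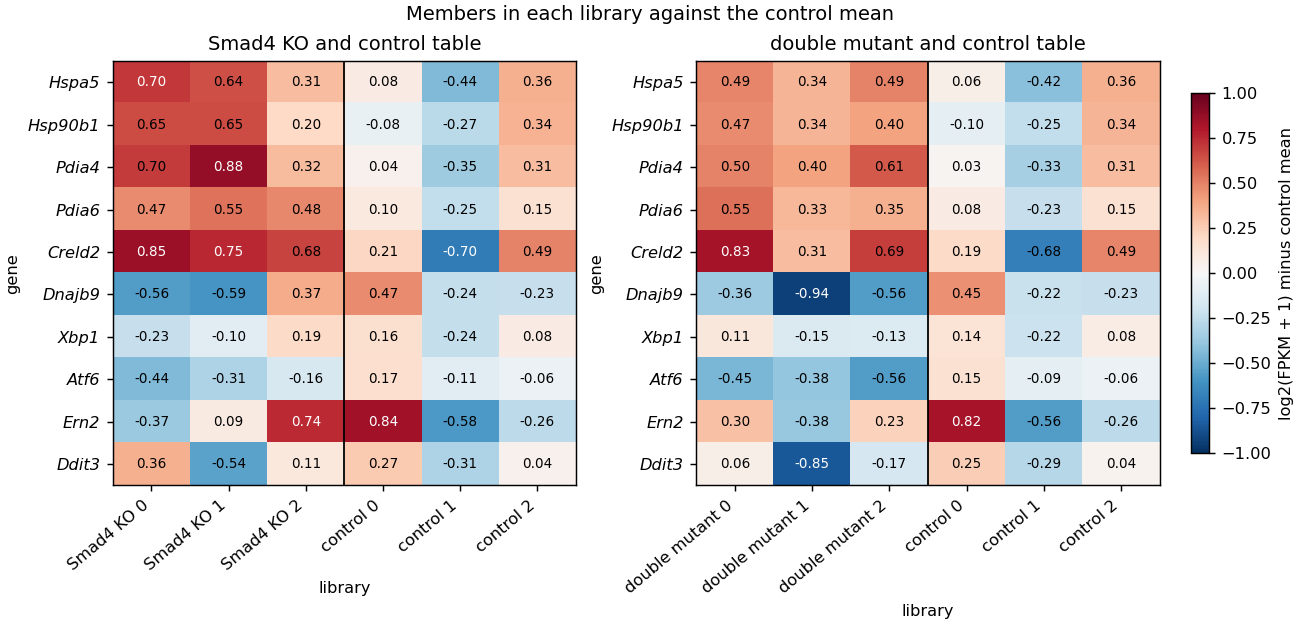
Difference of each gene's log2(FPKM + 1) in each library (columns) from its mean over the 3 controls, for the Smad4 KO table (left) and the double-mutant table (right), with mutant libraries left of the line. Hspa5, Hsp90b1, Pdia4, Pdia6 and Creld2 are positive in all 6 mutant libraries, and Atf6 is negative in all 6. Control 2 is also positive for these 5 in both panels, and for Hspa5 it lies above Smad4 KO 2 and double mutant 1.

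Atf6 encodes a membrane sensor that is cut in the Golgi under ER stress to release a transcription factor. Its RNA was at 11.5, 12.8 and 14.2 FPKM in Smad4 KO, against 18.1, 14.8 and 15.4 in controls, below the controls in 3 of 3 libraries (limma log2 fold change -0.30, SE 0.13, adjusted p = 0.263). In the double mutants it fell to 11.95, 12.6 and 11.1 FPKM, against 18.7, 15.7 and 16.0 in controls, which is 70.7% of control (limma log2 fold change -0.47, SE 0.10, adjusted p = 0.0326). This call ended when any 1 of the 6 libraries was left out, with adjusted p from 0.0532 to 0.127, while the log2 fold change stayed between -0.51 and -0.39. It also ended with the replicate number as a block (limma adjusted p = 0.0568), with sex added to the model (0.0564), without a filter on low values (0.0506) and without the 50 highest genes in the scaling (0.0592), over a range of 0.0253 to 0.127 in all alternatives. Its paralog Atf6b rose to 38.3 ± 2.32 FPKM in the double mutants, against 25.1 ± 4.30 in controls (SD, n = 3 each; change of 0.60 on the log2 scale, SE 0.14, limma adjusted p = 0.0370), with adjusted p from 0.0284 to 0.126 over all alternatives.

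Xbp1 encodes the transcription factor whose messenger RNA is spliced by IRE1 under ER stress. It was at 110.4, 121 and 148 FPKM in Smad4 KO, against 145, 110.1 and 138 in controls, with the groups interleaved (log2 fold change -0.05, 95% interval -0.47 to 0.37, limma adjusted p = 0.903). The double mutants had 147, 123 and 124 FPKM, against 149.8, 117 and 143 in controls (log2 fold change -0.06, 95% interval -0.40 to 0.28, limma adjusted p = 0.797). Gene-level FPKM count spliced and unspliced Xbp1 together, so the activity of IRE1 was not measured. Ddit3, the gene of CHOP, was at 21.6, 11.2 and 18.0 FPKM in Smad4 KO, against 20.2, 13.3 and 17.2 in controls (log2 fold change -0.02, 95% interval -0.68 to 0.63, limma adjusted p = 0.971). It was at 18.2, 9.21 and 15.4 FPKM in the double mutants, against 20.9, 14.1 and 17.9 in controls (log2 fold change -0.32, 95% interval -0.95 to 0.32, limma adjusted p = 0.418).

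Ratios within a library do not depend on how libraries were scaled, and were chosen after the values were seen, so they carry no test. Hspa5 was 6.62, 5.79 and 3.74 times Xbp1 in Smad4 KO and 4.49, 4.85 and 5.34 times Xbp1 in the double mutants, against 3.27, 3.01 and 4.18 times in controls. The double mutants lay above all controls, and Smad4 KO 2 did not. The ratio of Hspa5 to Atf6 was 63.4, 54.8 and 39.0 in Smad4 KO and 55.2, 47.2 and 59.7 in the double mutants, against 26.2, 22.4 and 37.5 in controls, with no overlap for either mutant group. Atf6 was itself below all controls in each mutant library, which favours such a separation. Smad4 KO 2 lay within the controls for Hspa5 to Dnajb9 (11.5, against 9.20, 10.7 and 18.4) and for Pdia4 to Xbp1 (0.803, against 0.678, 0.677 and 0.863). The double mutants lay above all controls in both of these ratios.

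**Figure D3:**
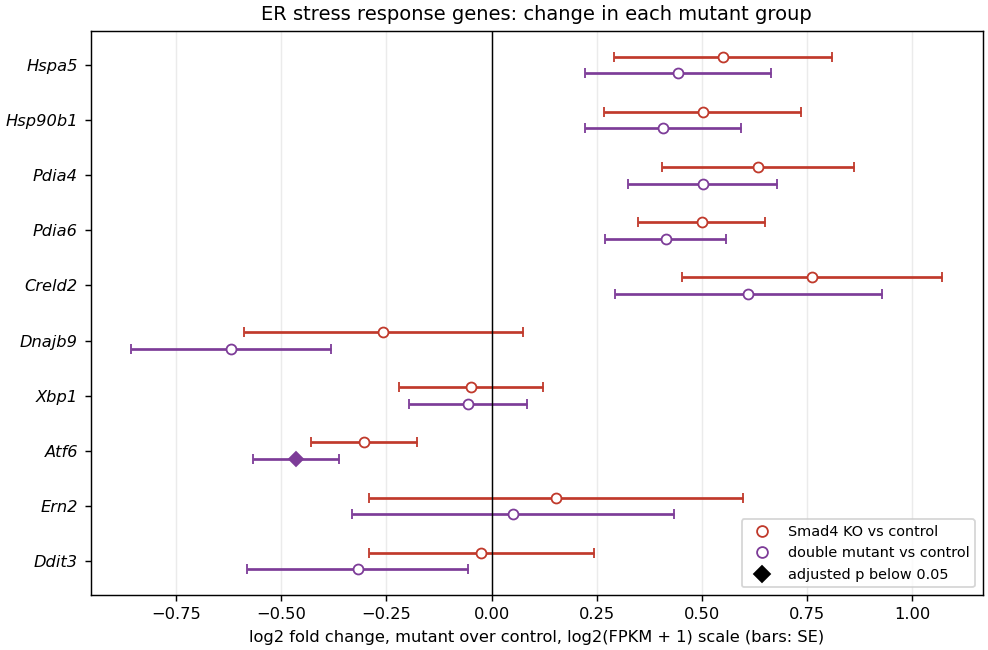
Log2 fold change of each gene over control on the log2(FPKM + 1) scale, with bars of 1 SE, for Smad4 KO and double mutants; a filled diamond marks an adjusted p below 0.05. Only Atf6 in the double mutants, at -0.47, carries a diamond, and the 5 genes from Hspa5 to Creld2 lie to the right of 0 in both comparisons.

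Dnajb9 and Ern2 varied widely within groups. Dnajb9 encodes ERdj4, a BiP co-chaperone that represses IRE1. It was at 24.8, 24.2 and 48.1 FPKM in Smad4 KO, against 51.6, 31.1 and 31.3 in controls, so Smad4 KO 0 and 1 lay below all controls and Smad4 KO 2 did not (limma log2 fold change -0.26, SE 0.33, adjusted p = 0.703). In the double mutants it was at 29.8, 19.7 and 25.8 FPKM, against 53.2, 32.9 and 32.7 in controls, without overlap, at 63.4% of control (limma log2 fold change -0.62, SE 0.24, adjusted p = 0.116). Leaving out Smad4 KO 2 gave a Smad4 KO change of -0.57, leaving out replicate 0 or 1 of that group gave -0.11 or -0.09, and leaving out control 0 gave -0.02. Leaving out control 0 gave a double-mutant change of -0.39.

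Ern2 encodes IRE1-beta, the form of IRE1 found in mucus-secreting epithelia. It was at 17.6, 24.6 and 39.3 FPKM in Smad4 KO, against 42.0, 15.1 and 19.1 in controls (log2 fold change 0.15, 95% interval -0.94 to 1.24, limma adjusted p = 0.882). It was at 29.8, 18.3 and 28.5 FPKM in the double mutants, against 43.4, 16.0 and 19.9 in controls (log2 fold change 0.05, 95% interval -0.88 to 0.98, limma adjusted p = 0.940). The spread between libraries of a group was thus wide, and the direction changed when single libraries were left out.

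Beside these values, the summed level of 15 goblet cell markers was 13397, 17518 and 21582 FPKM in Smad4 KO, against 24406, 16475 and 17201 in controls, and 20277, 12949 and 16266 FPKM in the double mutants, against 25166, 17456 and 17941 in controls. The summed level of 18 Paneth cell markers was 11457, 78585 and 162898 FPKM in Smad4 KO, against 172330, 94004 and 65548 in controls, and 116151, 37302 and 65653 FPKM in the double mutants, against 177697, 99605 and 68369 in controls. Control 0 and Smad4 KO 2 were highest in both marker sums of the Smad4 KO table and in Ern2 and Dnajb9, and double mutant 1 was lowest of the double mutants in all 4 measures. Double mutant 0 did not follow this pattern for Dnajb9: its goblet and Paneth sums were above those of controls 1 and 2, and its Dnajb9 level was below all 3 controls. Smad4 KO 0 had the lowest goblet and Paneth sums among Smad4 KO and control libraries. Its Dnajb9 level of 24.8 FPKM was not below the 24.2 of Smad4 KO 1. Its Ern2 level of 17.6 FPKM was above the 15.1 of control 1. Among the same libraries Xbp1 was also highest in Smad4 KO 2 and control 0, at 148 and 145 FPKM. Retnlb among the goblet markers was listed at 0 in 1 library, and Defa5 among the Paneth markers in all. Over both lists, limma called 0 markers in Smad4 KO. There 3 of 15 goblet and 1 of 17 Paneth markers tested were lower at an unadjusted limma p below 0.05, against 9.34% of all genes. In the double mutants limma called 3 goblet markers lower, Clca3, Capn9 and Klk1, against 9.09% of all genes. Paneth markers had a negative log2 fold change in 17 of 17 tested in Smad4 KO (median -0.86) and 16 of 17 in the double mutants (median -0.73). For goblet markers these counts were 7 of 15 and 8 of 15. In bulk samples fewer cells of a type and less RNA per cell cannot be told apart, and the part of the secretory cells in these results was not tested.

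**Figure D4:**
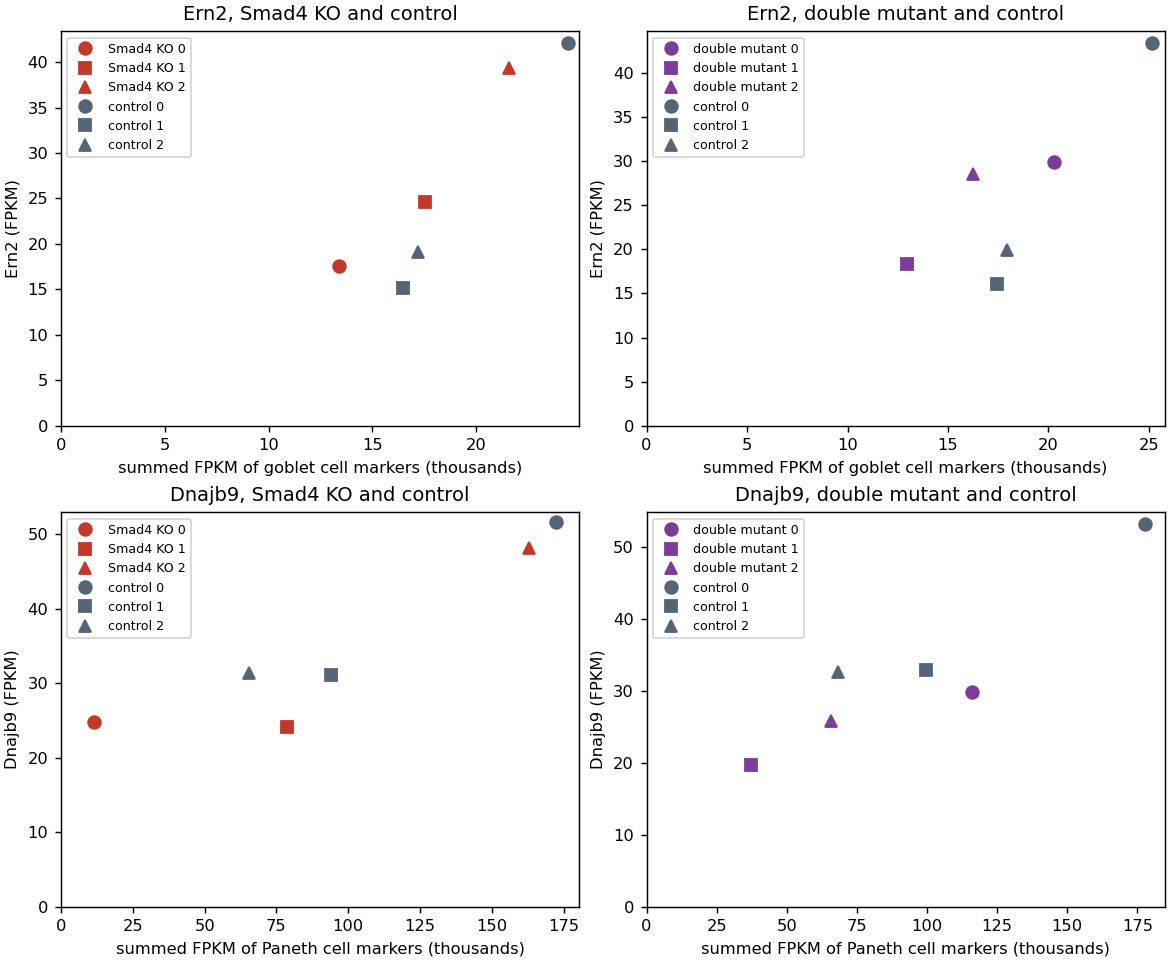
FPKM of Ern2 against the summed FPKM of goblet cell markers (top) and of Dnajb9 against the summed FPKM of Paneth cell markers (bottom), 1 point per library, for the Smad4 KO table (left) and the double-mutant table (right). Control 0 is at the upper right in each panel, and Smad4 KO 2 lies next to it on the left.

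Markers of other cell types were also called in the double mutants, while limma called 0 of them in Smad4 KO. Summed enteroendocrine markers were 835, 480 and 505 FPKM in Smad4 KO, against 322, 321 and 455 in controls, without overlap. Of 11 tested, 11 were positive and limma called 0. An unadjusted limma p below 0.05 was seen for 7, all higher, against 9.76% of all genes. In the double mutants the sums were 443, 356 and 618 FPKM, against 332, 340 and 474 in controls, with overlap, and 9 of 12 tested were positive. Tuft cell markers had a negative log2 fold change in 8 of 8 tested in each comparison. Summed enterocyte markers were 17240, 1440 and 2938 FPKM in Smad4 KO, against 4922, 6527 and 12950.1 in controls, and 1581, 2936 and 2771 in the double mutants, against 5076, 6916 and 13507 in controls. Of the markers in the double mutants, 13 of 16 for enterocytes and 8 of 10 for T cells were called lower, and the stem cell markers Lgr5 and Smoc2 and the enteroendocrine markers Pyy and Insm1 were called higher. Summed plasma and B cell markers, of interest because plasma cells are rich in ER, were 57.5, 62.1 and 128 FPKM in Smad4 KO, against 65.5, 49.7 and 73.7 in controls. They were 64.1, 50.3 and 39.6 FPKM in the double mutants, against 67.5, 52.6 and 76.9 in controls. Cd38 alone was at 36.5 to 51.9 FPKM over Smad4 KO and control libraries. Of the markers tested, 8 of 9 were positive in Smad4 KO (median log2 fold change 0.72) and 1 of 7 in the double mutants (median -0.17). Limma called 0 of these in either comparison. The plasma cell receptor Tnfrsf17 was at most 0.119 FPKM in any library, while Cd79b reached 16.9 FPKM among Smad4 KO and control libraries. Summed stromal markers reached 99.3 FPKM in Smad4 KO 2 and 63.7 FPKM in double mutant 0, against at most 9.64 in controls. The part of these cells in the members' values was not tested.

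Of the 5 genes whose pattern was most like that of Hspa5, 3 were in the pathway lists, as were 6 of the nearest 20 and 7 of the nearest 50, members included, against 140 of the 6892 genes ranked. By the mean of Pearson's r over the 6 libraries of each table, the nearest of 6892 genes with at least 10 FPKM on average were the lectin chaperone Calr (0.99), the ER Hsp70 relative Hyou1 (0.99), the BiP co-chaperone Dnajb11 (0.99), Pigo (0.98), an enzyme of GPI anchor synthesis, and Pnn (0.98), a nuclear protein of RNA processing. Among the members, Pdia4 ranked 10, Creld2 16, Hsp90b1 22 and Pdia6 85, with r between 0.92 and 0.98. Ern2, Xbp1 and Ddit3 had r between 0.10 and 0.21, Dnajb9 -0.40 and Atf6 -0.61. These values describe 6 points that share library scaling and, across tables, the same controls.

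The other genes of the pathway were described in 7 lists. Ero1l stands in 2 of them, and Agr2 and Derl3 are also among the goblet and the plasma cell markers. Of 152 genes tested in Smad4 KO limma called 0, and of 151 tested in the double mutants it called 17, 12 higher and 5 lower, against 18.5% of all genes. Of these 17 calls, 0 held when double mutant 2 was left out, 3 when double mutant 0 was, 8 when double mutant 1 was and 11 when any 1 control was, while all 17 kept their direction. Of 19 further ER chaperones and co-chaperones, 16 had a positive log2 fold change in each comparison, with medians of 0.28 in Smad4 KO and 0.15 in the double mutants, while 49.6% and 49.9% of all genes were positive. Limma called 0 in Smad4 KO, where 2 of 19 had an unadjusted p below 0.05, against 19.1% of all genes. It called 1 in the double mutants, against 18.5% of all genes. There 3 of 19 had an unadjusted limma p below 0.05, against 36.6% of all genes. Sdf2l1, a partner of the BiP co-chaperone Dnajb11, was at 98.4 ± 4.24 FPKM in Smad4 KO, against 58.2 ± 14.5 in controls, and at 97.2 ± 17.1 in the double mutants, against 60.6 ± 14.6 (SD, n = 3 each; limma adjusted p = 0.158 and 0.0774). Hyou1 was at 125 ± 18.6 FPKM in Smad4 KO, against 83.0 ± 24.7 in controls, and Dnajb11 at 115 ± 5.36 FPKM in the double mutants, against 88.3 ± 18.0 (SD, n = 3 each). Cnpy3, a co-chaperone of GRP94, rose to 30.7 ± 1.23 FPKM in the double mutants, against 21.9 ± 1.51 in controls (SD, n = 3 each; limma log2 fold change of 0.47, adjusted p = 0.0225). Of 16 disulfide isomerases and oxidases, 12 were positive in each comparison (medians 0.27 and 0.16) and 0 were called by limma. An unadjusted limma p below 0.05 was seen for 1 of 16 and 3 of 16, against 19.1% and 36.6% of all genes. The isomerase Txndc5 was at 255 ± 31.4 FPKM in Smad4 KO, against 181 ± 25.4 in controls, and at 258 ± 24.3 in the double mutants, against 189 ± 24.0 (SD, n = 3 each; limma adjusted p = 0.202 and 0.0736). The remaining genes chosen by rule were Pdia3 (log2 fold change 0.41) and the oxidase Ero1l (0.54) in Smad4 KO, and Pdia5 (0.44) and Ero1lb (-0.67) in the double mutants.

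Genes of ER-associated degradation, which clears misfolded proteins, had positive log2 fold changes in 9 of 22 in Smad4 KO (median -0.04) and 5 of 22 in the double mutants (median -0.15), against 49.6% and 49.9% of all genes. Limma called 0 in Smad4 KO, where 2 of 22 were lower at an unadjusted p below 0.05, against 9.34% of all genes. It called 1 of 22 lower in the double mutants, against 9.09% of all genes. There the lectin Erlec1 fell to 9.95 ± 0.337 FPKM, against 13.0 ± 0.376 in controls (SD, n = 3 each; limma log2 fold change of -0.36, adjusted p = 0.0327). The ubiquitin ligase genes Syvn1 and Rnf5 had log2 fold changes of 0.54 and -0.29 in Smad4 KO, and Rnf5 and the mannosidase Edem3 had -0.27 and -0.33 in the double mutants. ER translocation and signal peptide processing was near 0, with medians of 0.04 over 29 genes in Smad4 KO and 0.04 over 28 in the double mutants. Limma called 0 there in Smad4 KO, where 2 of 29 had an unadjusted p below 0.05, against 19.1% of all genes. It called 2 of 28 higher in the double mutants, against 9.39% of all genes. Those were Srp19 of the signal recognition particle, at 52.0 ± 2.83 FPKM in the double mutants against 40.1 ± 2.47 in controls, and Rpn1 of the oligosaccharyltransferase, at 166 ± 5.85 FPKM in the double mutants against 125 ± 9.49 in controls (SD, n = 3 each; limma adjusted p = 0.0419 and 0.0423). Srprb, a receptor subunit for that particle, had log2 fold changes of 0.33 in Smad4 KO and 0.29 in the double mutants.

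Of the genes of transport from ER to Golgi, 8 of 24 were positive in Smad4 KO (median -0.11) and 5 of 24 in the double mutants (median -0.23). An unadjusted limma p below 0.05 was seen for 0 in Smad4 KO. It was seen for 9 of 24 in the double mutants, all lower, against 18.4% of all genes. The double mutants lay below all controls for 8 of 24, against 21.3% of all genes. Limma called 0 in Smad4 KO and 2 of 24 lower in the double mutants, near the 9.09% of all genes called lower there. These were the COPII coat genes Sec23a, at 23.9 ± 3.94 FPKM in the double mutants against 46.6 ± 8.62 in controls, and Sec24a, at 14.6 ± 1.58 FPKM in the double mutants against 22.3 ± 3.47 in controls (SD, n = 3 each; limma log2 fold changes of -0.93 and -0.57, adjusted p = 0.0223 and 0.0410). The cargo receptor subunit Mcfd2 was at 78.4 ± 3.38 FPKM in the double mutants, against 113 ± 19.6 in controls (limma adjusted p = 0.0556), and the COPI coat genes Copb1 and Copb2 had log2 fold changes of -0.18 and -0.16 in Smad4 KO.

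**Figure D5:**
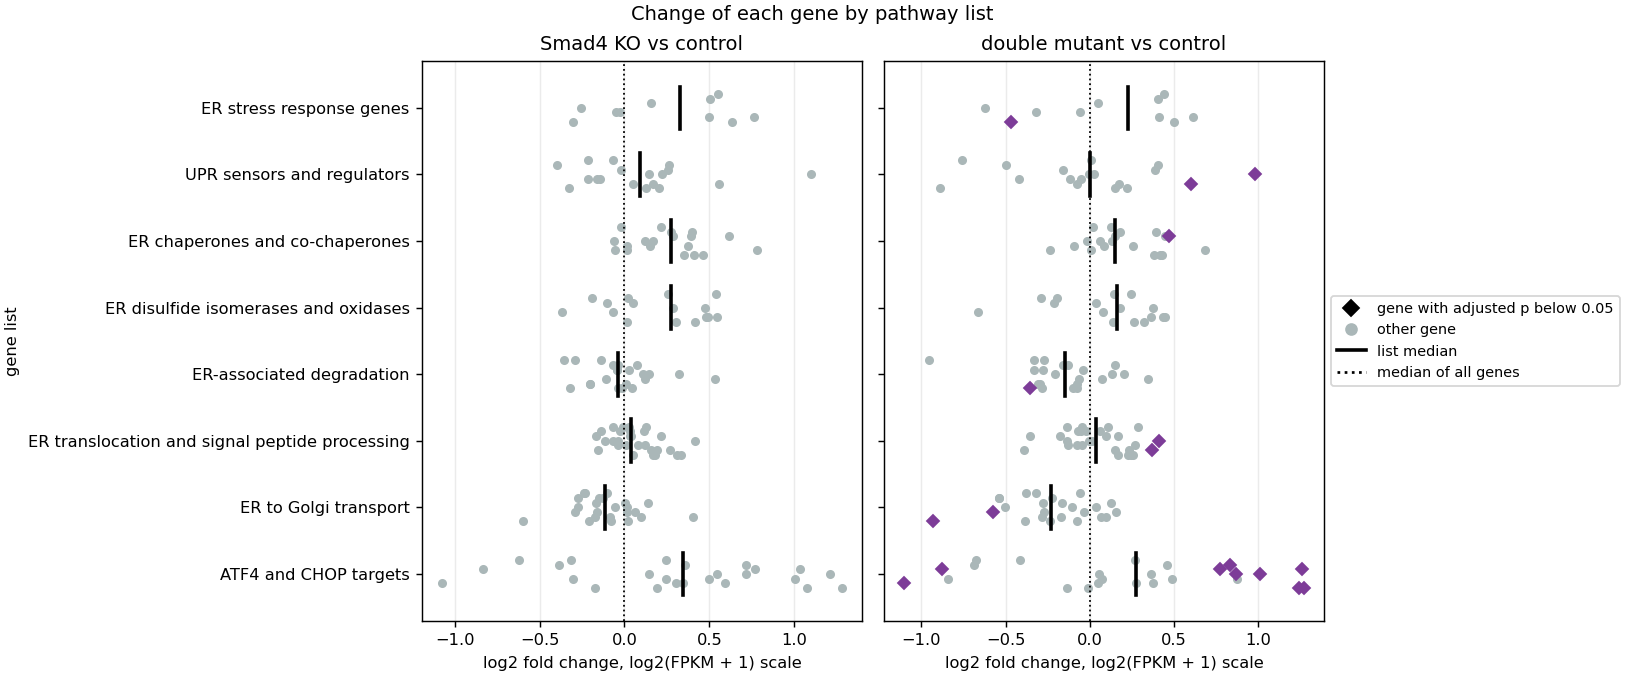
Log2 fold change on the log2(FPKM + 1) scale of every tested gene of the 10 members and of 7 further pathway lists, for Smad4 KO (left) and double mutants (right); black bars are list medians, the dotted line is the median of all genes, and diamonds are called genes. The chaperone and isomerase lists sit to the right of the dotted line in both panels, and the ER to Golgi list to the left.

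Targets of ATF4 and CHOP, which act downstream of PERK, divided. The activity of PERK was not measured. Of 25 tested in Smad4 KO, 18 were positive (median 0.34) and limma called 0, with 6 higher and 3 lower at an unadjusted p below 0.05, against 9.76% and 9.34% of all genes. Of 25 tested in the double mutants, 17 were positive (median 0.27), and 7 rose and 2 fell, against 9.39% and 9.09% of all genes called higher and lower. Shmt2, a mitochondrial enzyme of serine and one-carbon metabolism, rose to 74.3 ± 4.41 FPKM in the double mutants, against 30.6 ± 4.82 in controls (SD, n = 3 each; limma log2 fold change of 1.26, adjusted p = 0.0102). It was at 61.3 ± 11.2 FPKM in Smad4 KO, against 29.3 ± 4.78 in controls (SD, n = 3 each; limma log2 fold change of 1.03, adjusted p = 0.111). Phgdh, the first enzyme of serine synthesis, had log2 fold changes of 1.28 in Smad4 KO and 1.27 in the double mutants (limma adjusted p = 0.112 and 0.0169). Sesn2, an inhibitor of mTORC1 signalling, rose to 7.62 ± 0.464 FPKM in the double mutants, against 3.29 ± 0.285 in controls (SD, n = 3 each; limma adjusted p = 0.00997). The cysteine-forming enzyme Cth was lower, with log2 fold changes of -1.07 in Smad4 KO and -1.10 in the double mutants (limma adjusted p = 0.111 and 0.0131). Atf5, Slc7a5, Cebpb and Bbc3 also rose, and Gadd45a also fell in the double mutants. Sesn2, Bbc3 and Gadd45a are known p53 targets as well, so not all members of the list answer to ATF4 and CHOP alone.

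Of 18 other sensors and regulators, 10 were positive in Smad4 KO and 9 in the double mutants (medians 0.09 and 0.0020). Limma called 0 in Smad4 KO, where 2 of 18 had an unadjusted p below 0.05, against 19.1% of all genes. It called 2 of 18 higher in the double mutants, Atf6b and Bax, against 9.39% of all genes. Bax, a pro-apoptotic protein and also a p53 target, was at 187, 75.1 and 91.7 FPKM in Smad4 KO, against 47.8, 50.5 and 52.7 in controls, and rose to 105 ± 5.46 in the double mutants, against 52.6 ± 2.94 in controls (SD, n = 3 each; limma adjusted p = 0.185 and 0.00832). Eif2s1, the translation factor subunit that PERK phosphorylates, had log2 fold changes of 0.26 in Smad4 KO and 0.39 in the double mutants (limma adjusted p = 0.331 and 0.0752).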

How the data were processed

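The authors deposited FPKM for 23951 genes in 2 tables of 6 libraries each. The submitters' processing notes name TopHat2 2.1.1, Cuffnorm 2.2.1, Cuffdiff 2.2.1 and build mm9; which annotation was used is not stated there. Per the labels' protocols, the epithelium was loosened in 3 mM EDTA and crypts were isolated with a 70 micron filter; the TruSeq RNA kit used does not mark strand, so overlapping antisense reads are not told apart. FPKM hold no read numbers, so no counting interval can be given. Each control differed between the tables by a constant factor (1.03, 1.06 and 1.04 for controls 0, 1 and 2), and tests were run within a table.

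limma 3.58.1 (R 4.3.3) was fitted to log2(FPKM + 1) of genes averaging 1 FPKM or more over the 6 libraries of a table, with a mean-variance trend, two-sided; the script was tested on simulated data. Fold changes on this scale understate those of low genes. Members and lists were chosen with earlier results of these data known. Named genes were the members, Smad4, Ctnnb1, the 3 genes of smallest p in each pathway list and comparison, called markers, and the 5 genes most like Hspa5; other called genes were named after their values were seen. 1 called marker is not reported here. Alternatives were other pseudocounts, filters and scalings, no trend, sex (read from Xist and Y-linked genes), a replicate block, all 9 libraries joined, and each library left out; those for the other pathway genes, Smad4 and Ctnnb1 were added after seeing the data. Promoter sequences came from RefSeq (GRCm38.p6).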

Additional observations from a re-analysis of the deposited data

How the results depend on the processing

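Of 340 recomputed log2 fold changes of the members, 314 kept their direction and their side of the threshold, 10 lost the call (Atf6 in the double mutants), 1 gained it (Pdia6 in the double mutants with quantile normalization, adjusted p = 0.0411) and 15 turned their sign. The sign changes were of Xbp1, Ddit3 and Ern2, whose main values are near 0. Xbp1 was 0.015 in Smad4 KO and 0.0064 in the double mutants with quantile normalization, and 0.0074 in the double mutants without the 50 highest genes in the scaling; Ddit3 was 0.061 in Smad4 KO with sex in the model. Leaving out 1 library gave -0.17 to 0.043 for Xbp1, -0.22 to 0.23 for Ddit3 and -0.14 to 0.57 for Ern2 in Smad4 KO, and -0.17 to 0.014 for Xbp1 and -0.23 to 0.46 for Ern2 in the double mutants. Hspa5, Hsp90b1, Pdia4, Pdia6, Creld2, Atf6 and Dnajb9 kept their direction under all 17 alternatives in both comparisons, but not their size. Without control 1 Hspa5 was 0.33 in Smad4 KO and 0.23 in the double mutants and Creld2 0.41 and 0.27, and without 1 library Dnajb9 ranged from -0.57 to -0.02 and from -0.75 to -0.39. The cause of these changes was not tested. Smad4 itself kept its direction in all alternatives of both comparisons; its Smad4 KO call was lost with sex in the model (-2.10, adjusted p = 0.0553) and with the replicate block (-2.13, adjusted p = 0.234). Ctnnb1 in Smad4 KO ranged from -0.011 to 0.19 without 1 library. Other pathway genes called numbered 3 in Smad4 KO with all 9 libraries joined, and 0 to 16 in the double mutants without 1 library.

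Members called in Smad4 KO numbered 0 under all 17 alternatives. In the double mutants they numbered 2 with quantile normalization and 0 without a filter, with sex in the model, without the 50 highest genes in the scaling, with the replicate block and in each fit without 1 library (lowest and highest 0). Genes called in Smad4 KO numbered 2 with pseudocount 5, 8 with quantile normalization, 2 with sex in the model, 7 without the 50 highest genes, 1 with the replicate block (1602 in the double mutants), 418 with all 9 libraries joined, and 5 to 16 without 1 library. Genes called in the double mutants numbered 1392 without a filter and 30 to 1555 without 1 library, the fewest without double mutant 2. The replicate numbers do not pair the samples by the labels: deviations of same-numbered libraries correlated between -0.11 and 0.22 in Smad4 KO and between 0.04 and 0.13 in the double mutants, each double mutant, but not each Smad4 KO library, correlated best with the control of its own number, and the replicate block changed no call of a member other than Atf6.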
